A study of Mus musculus with 12 samples.

Results

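H3K36ac regions inside genes and away from gene starts were examined in spermatogonia-enriched cells from mouse testes at postnatal day 5 (Pnd 5). The 6 samples were 3 wild-type (WT) and 3 *Sirt7*-/- samples, all from untreated mice of the same inbred strain and numbered as replicates 2, 3 and 4 in each genotype. The *Sirt7*-/- mice lack SIRT7 in the whole body, each sample came from a different mouse, and spermatogonia were enriched by differential plating, so that other testis cells may remain. Chromatin of 50000 cells per sample was immunoprecipitated with an H3K36ac antibody, and broad peaks were called in each sample against its own input. Overlapping or touching peaks of the 6 lists were merged into 4467 regions. A gene-body region was a merged region with at least 1 bp inside an mm10 RefSeq gene and no part within 3 kb of the start of any gene. There were 446 such regions, or 9.98% of all merged regions. The other regions were 3871 at promoters, 149 between genes and 1 on an unplaced scaffold.

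Acetylation of lysine 36 of histone H3 is found mostly near the starts of active genes, and it occupies the same residue that SETD2 methylates along the body of transcribed genes. SIRT7 is a nuclear deacetylase of the sirtuin family, and H3K36ac is one of its known substrates. Many mammalian genes have more than 1 transcription start, so a position inside an annotated gene can itself be the start of a shorter transcript. Such alternative promoters often lie in CpG islands, stretches rich in G, C and the dinucleotide CpG.

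The lists held 2045 to 2840 peaks in the *Sirt7*-/- samples and 64 to 906 in the WT samples, and WT replicate 3 was the shortest list. The study states clean reads per library, before duplicates were removed, and by these WT replicate 3 was not the shallowest library. The lists give no read coverage, so the number of reads behind a single peak is not known here, and a missing peak does not show that the mark was absent. No list had a peak at the start of *Sirt7*, which therefore checks neither genotype. Of 10 spermatogonial marker genes, promoter peaks were listed for *Zbtb16* and *Gfra1* in *Sirt7*-/- replicate 2, for *Etv5* and *Dazl* in *Sirt7*-/- replicate 4 and for 0 genes in the other 4 samples. Among 7 Sertoli cell markers, *Sox9* had a promoter peak in *Sirt7*-/- replicate 3, and 0 of 7 Leydig and peritubular and 0 of 4 macrophage and endothelial markers had one in any sample. The labelled cell type could therefore not be checked well from these lists.

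The sequences of 6 transcript starts inside host genes are shown first because the most recurrent gene-body regions lay on them. Each is the stretch of 250 bases before a transcript start listed in RefSeq (GRCm38.p6, the assembly of mm10), written 5′ to 3′ on the strand of the gene in lower case. Capitals mark matches, on either strand, to the GC box GGGCGG, the ETS motif CCGGAAG, the CCAAT box or the TATA box TATAAA. Matches could overlap.
Slc39a10, chr1:46853619-46853868, minus strand: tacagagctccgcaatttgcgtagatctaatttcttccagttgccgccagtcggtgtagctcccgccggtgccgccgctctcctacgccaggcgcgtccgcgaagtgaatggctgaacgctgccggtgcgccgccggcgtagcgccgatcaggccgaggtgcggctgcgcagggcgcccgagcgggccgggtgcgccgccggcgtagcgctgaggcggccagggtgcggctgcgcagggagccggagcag
Ccnl1, chr3:65958250-65958499, minus strand: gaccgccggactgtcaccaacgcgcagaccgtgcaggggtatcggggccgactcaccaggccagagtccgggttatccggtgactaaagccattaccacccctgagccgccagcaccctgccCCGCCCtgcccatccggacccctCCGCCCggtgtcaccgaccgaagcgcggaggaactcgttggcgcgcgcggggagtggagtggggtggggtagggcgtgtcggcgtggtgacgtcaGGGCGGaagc
Nfyc, chr4:120825210-120825459, minus strand: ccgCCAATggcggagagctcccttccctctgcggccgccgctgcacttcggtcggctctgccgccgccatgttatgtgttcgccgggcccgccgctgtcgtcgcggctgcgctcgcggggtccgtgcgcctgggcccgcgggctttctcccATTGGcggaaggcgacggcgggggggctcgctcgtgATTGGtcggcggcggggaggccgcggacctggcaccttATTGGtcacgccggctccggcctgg
Tjp1, chr7:65371245-65371494, minus strand: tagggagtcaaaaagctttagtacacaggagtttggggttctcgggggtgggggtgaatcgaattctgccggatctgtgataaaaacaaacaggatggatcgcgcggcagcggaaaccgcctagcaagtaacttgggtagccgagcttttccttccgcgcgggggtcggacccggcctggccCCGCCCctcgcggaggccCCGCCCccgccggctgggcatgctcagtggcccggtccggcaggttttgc
Sertad2, chr11:20631727-20631976, plus strand: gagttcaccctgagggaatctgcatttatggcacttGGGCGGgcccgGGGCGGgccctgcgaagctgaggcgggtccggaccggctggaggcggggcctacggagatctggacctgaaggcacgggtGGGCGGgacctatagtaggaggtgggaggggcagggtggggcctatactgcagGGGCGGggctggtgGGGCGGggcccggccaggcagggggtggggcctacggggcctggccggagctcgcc
Rpl19, chr11:98026674-98026923, plus strand: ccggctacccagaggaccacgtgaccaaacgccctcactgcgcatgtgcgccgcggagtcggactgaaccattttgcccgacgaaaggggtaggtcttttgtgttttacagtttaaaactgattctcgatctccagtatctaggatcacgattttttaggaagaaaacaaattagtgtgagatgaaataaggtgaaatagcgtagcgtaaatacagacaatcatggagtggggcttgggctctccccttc

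The windows of *Slc39a10*, *Ccnl1*, *Nfyc*, *Tjp1* and *Sertad2* held 63.2 to 74.4% G and C and 17 to 37 CpG dinucleotides. The *Rpl19* window held 48.0% G and C and 14 CpG. *Nfyc* encodes a subunit of NF-Y, the factor that binds the CCAAT box, and its window held 4 CCAAT boxes, the highest count of this motif among these 6. The *Sertad2* window held 5 GC boxes, that of *Ccnl1* 3 and that of *Tjp1* 2, while the *Slc39a10* and *Rpl19* windows held 0 of the 4 motifs. Windows at the starts near the *Pan3* and *Mllt10* regions, also among the 10 most recurrent, are not shown. That of *Pan3* held 0 of the 4 motifs and that of *Mllt10* held 2 GC boxes. For comparison, 35.6% of all 32812 listed start windows (250 bases before to 50 after the start) held a GC box, 37.4% a CCAAT box, 8.85% the ETS motif and 13.6% the TATA box. A match is a description of the letters and not a site of binding.

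The 446 regions lay in 421 host genes, of which 395 were protein-coding and 26 were lncRNA genes. Of 21887 protein-coding genes, 1.80% thus hosted a gene-body region. A single region was found in 397 hosts, 2 regions in 23 hosts and 3 in *Arhgap26*. Protein-coding hosts were long, with a median length of 82.8 kb against 17.2 kb over all protein-coding genes. Longer genes offer more sequence for a region to fall in, and the part of length in the choice of hosts was not tested. The regions were 205 to 2737 bp wide with a median of 498.5 bp, between the medians of promoter regions (553 bp) and intergenic regions (290 bp). The gene table has no exons, so exonic and intronic positions were not separated. For 10 regions the strand of the host was not known, and 25 regions lay within 3 kb of either end of some gene of unknown strand, where they may be promoters.

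The regions were denser near the start of the host and sparser near its end. Over the 436 regions with a host of known strand, the midpoint of the region lay a median of 24.2 kb from the gene start (range 3.31 to 1483 kb) and 46.7 kb from the gene end. As a share of host length the median position was 38.1%, and 288 regions (66.1%) lay before the midpoint of the gene. In protein-coding hosts there were 154 regions per 100 Mb of gene body at 3 to 5 kb from the start, 122 at 5 to 10 kb and 48.5 at 10 to 20 kb. The density was 43.1 per 100 Mb at 20 to 50 kb, 38.7 at 50 to 100 kb and 20.2 beyond 100 kb. Along the gene it was 79.7 per 100 Mb in the first 10% of the length and 17.3 in the last 10%. The last 3 kb of protein-coding genes held 11 regions, or 23.7 per 100 Mb, against 43.8 per 100 Mb over whole gene bodies. Around the 3 kb limit itself, 89 promoter regions had the nearest gene start 2 to 3 kb away and 41 gene-body regions had it 3 to 4 kb away.

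**Figure D1:**
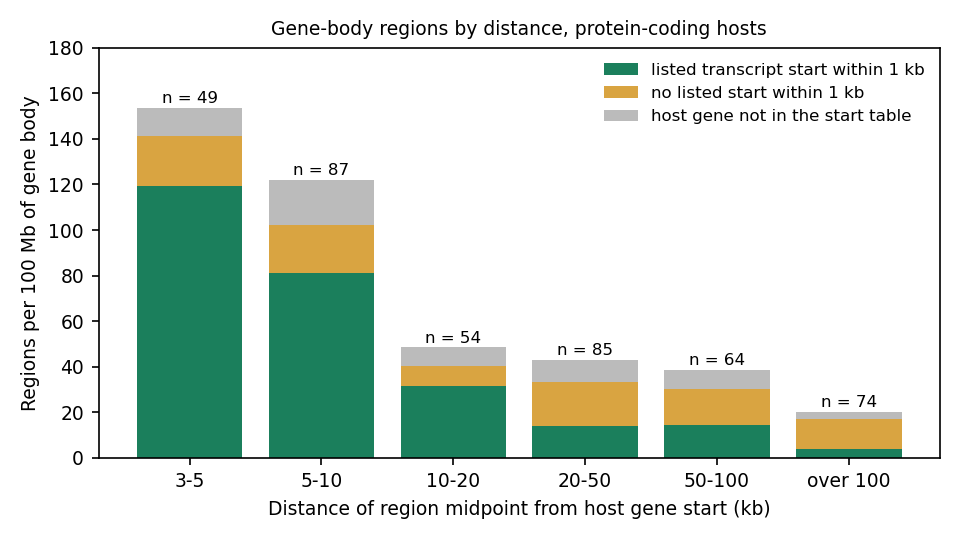
Density of gene-body regions in protein-coding hosts (vertical axis, regions per 100 Mb of gene body) by distance of the region midpoint from the host gene start (horizontal axis, kb), with bars stacked by whether a RefSeq transcript start was listed within 1 kb. The density was 154 per 100 Mb at 3 to 5 kb and 20.2 beyond 100 kb, and the stack of regions at listed starts went from 119 to 4.09 per 100 Mb.

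The larger part of the gene-body regions with a host in the start table lay at an annotated inner transcript start. RefSeq starts were listed for the hosts of 359 regions, and 199 of these (55.4%) had a listed start within 1 kb, 186 (51.8%) within 300 bp and 111 (30.9%) contained one. Sequence within 1 kb of a listed start made up 0.703% of the gene-body sequence of the genes in that table. For 198 of the 199 regions the start was that of the host gene itself. Most of these regions were centred downstream of the start in the direction of transcription, 161 of 199 (80.9%), with a median offset of 210.5 bp. The split into regions with and without a listed start within 1 kb was chosen after the data were seen and is described without a test. In protein-coding hosts, listed starts were near 38 of the 45 regions at 3 to 5 kb whose host was in the table, and near 15 of 62 beyond 100 kb. The remaining 87 regions had hosts outside the start table and are counted in neither class.

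The inner starts that carried a region resembled other starts with a region in base composition. Of 3335 listed inner starts, 252 (7.56%) had a gene-body region within 1 kb, against 4483 of 29477 other listed starts (15.2%) with any merged region. The median ratio of observed to expected CpG, computed over the 300 bases of each start window, was 0.823 at the 252 inner starts with a region and 0.259 at the 3083 without. It was 0.865 at other starts with a region and 0.321 at other starts without. The median content of G and C was 65.3% at inner starts with a region and 49.7% at those without. A GC box was present in 71.0% of inner starts with a region and 22.2% of those without, and the ETS motif in 11.1% and 3.47%. The CCAAT box went the other way, at 26.2% against 37.0%, and so did the TATA box, at 5.16% against 14.5%. Several starts can share a region and a gene, so the windows are not independent and no test was made.

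Regions at listed starts recurred between samples more often than regions without one. Of the 199 regions at listed starts, 115 (57.8%) were called in at least 2 samples, against 23 of 160 (14.4%) without a listed start. Over all 446 gene-body regions, 284 (63.7%) were called in 1 sample, 74 in 2, 49 in 3, 29 in 4, 9 in 5 and 1 in all 6. The share called in 1 sample was 46.4% at promoters and 87.2% between genes, so that regions at listed starts were nearer to promoters and the others nearer to intergenic regions. Among the 39 gene-body regions called in 4 or more samples, 33 had a host in the start table, and 31 of these lay at a listed start. Regions at listed starts were also wider, with a median of 594 bp against 348.5 bp, and closer to the gene start, with a median of 10.4 kb against 45.3 kb. A merged region can widen with each list that calls it, so this width is not separate from recurrence. Single peaks in *Sirt7*-/- replicates 2, 3 and 4 had mean widths of 596, 549 and 626 bp at listed starts, against 416, 518 and 497 bp without one. Of regions called in 1 sample, 134 came from *Sirt7*-/- replicate 4, 106 from *Sirt7*-/- replicate 2 and 33 from *Sirt7*-/- replicate 3, and 11 came from WT samples.

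**Figure D2:**
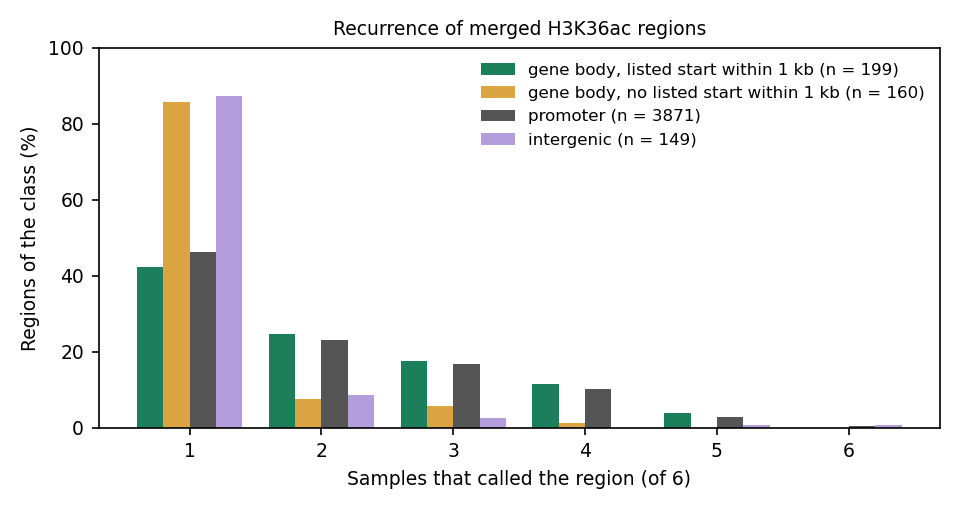
Share of merged regions (vertical axis, % of the class) called in 1 to 6 of the 6 samples (horizontal axis), for 199 gene-body regions with a listed transcript start within 1 kb, 160 without one, 3871 promoter regions and 149 intergenic regions. Regions called in 1 sample made up 42.2%, 85.6%, 46.4% and 87.2% of these classes.

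The comparison of the genotypes asked how the gene-body peaks of single samples differed without SIRT7. The *Sirt7*-/- samples held 237, 157 and 261 gene-body peaks in replicates 2, 3 and 4, and the WT samples held 64, 5 and 22. Every *Sirt7*-/- sample had more than every WT sample, with means of 218 ± 54.5 and 30.3 ± 30.4 (SD, n = 3 each, p = 0.1 in a two-sided exact permutation test, as low as groups of 3 permit). Gene-body peaks covered 123 ± 29.6 kb in *Sirt7*-/- and 12.2 ± 12.7 kb in WT samples (SD, n = 3 each, p = 0.1, two-sided exact permutation test). Their mean width was 564 ± 5.997 bp in *Sirt7*-/- and 424 ± 82.5 bp in WT samples, without overlap between the groups (SD, n = 3 each, p = 0.1, two-sided exact permutation test). Promoter peaks were also wider in *Sirt7*-/- lists, so the difference was not particular to gene bodies. For replicates 2, 3 and 4 their mean width was 597, 554 and 596 bp in *Sirt7*-/- and 467, 357 and 394 bp in WT samples.

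As a share of each sample's own peaks, however, gene-body peaks overlapped between the genotypes. For replicates 2, 3 and 4 the *Sirt7*-/- shares were 8.35, 7.68 and 10.1%, and the WT shares were 7.06, 7.81 and 7.48%. The groups overlapped, with means of 8.70 ± 1.24% and 7.45 ± 0.375%, and the difference of 1.25 percentage points was within the spread of the *Sirt7*-/- samples (SD, n = 3 each, p = 0.2, two-sided exact permutation test). Without *Sirt7*-/- replicate 4 the difference was 0.487 percentage points. When each list was reduced to its best 64 peaks by the authors' -log10 q, the gene-body peaks numbered 6, 5 and 5 in *Sirt7*-/- and 2, 6 and 2 in WT replicates 2, 3 and 4. The higher number of gene-body peaks in *Sirt7*-/- samples therefore moved with the length of the whole list, and whether it would hold at equal lengths was not resolved by so few peaks.

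**Figure D3:**
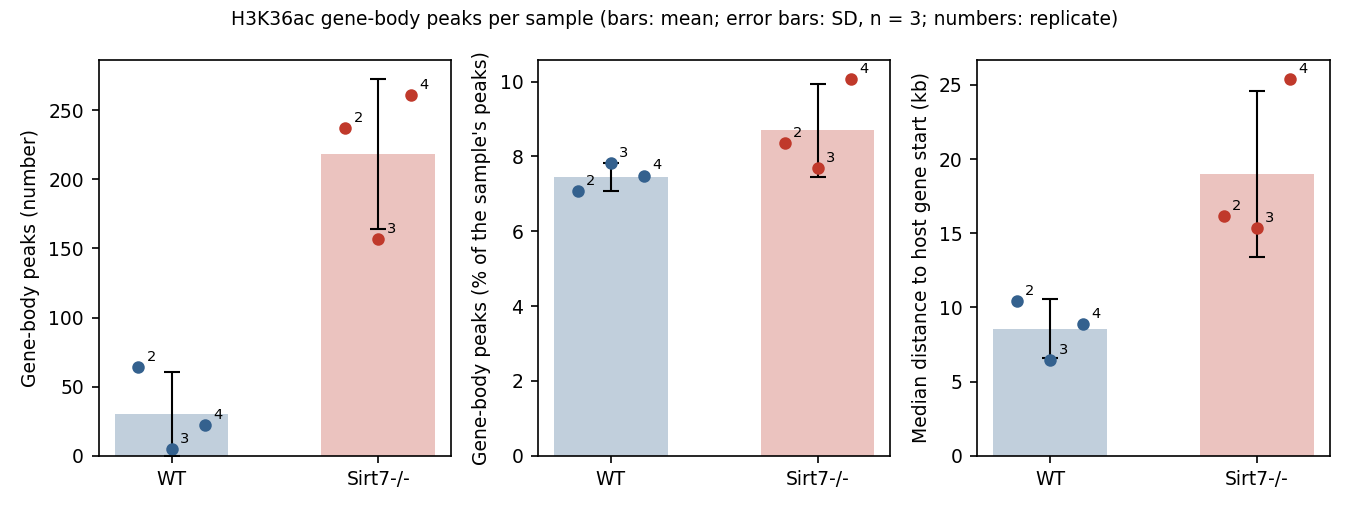
Gene-body peaks per sample as a number (left), as % of the sample's peaks (middle) and by median distance to the host gene start in kb (right), with points for samples, bars for group means and error bars for the SD (n = 3 per genotype). The Sirt7-/- samples hold 157 to 261 gene-body peaks and the WT samples 5 to 64, while the shares overlap.

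Gene-body peaks lay further from the gene start in the *Sirt7*-/- lists. For replicates 2, 3 and 4 the median distance was 16.2, 15.3 and 25.4 kb without SIRT7, against 10.4, 6.42 and 8.88 kb in WT samples. The groups did not overlap, with means of 18.96 ± 5.59 and 8.56 ± 2.01 kb (SD, n = 3 each, p = 0.1, two-sided exact permutation test). Expressed as a position within the host, the median was 33.1 ± 4.53% of the gene length in *Sirt7*-/- and 18.002 ± 6.46% in WT samples (SD, n = 3 each, p = 0.1, two-sided exact permutation test). At 64 peaks per list the difference in distance was -13.6 kb, in the opposite direction, and rested on 2 to 6 gene-body peaks per sample. Gene-body peaks at listed starts made up 64.1, 80.5 and 57.3% of those with a host in the start table in *Sirt7*-/- replicates 2, 3 and 4. In WT samples the share was 85.7, 100 and 83.3%, above every *Sirt7*-/- sample, although WT replicate 3 had only 4 such peaks.

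Peaks without a listed start stood lower in their own lists in *Sirt7*-/- replicates 2 and 4 and in WT replicates 2 and 4. Ranked by the authors' -log10 q from 0 (best) to 100, their median percentile was 86.2, 53.1 and 74.96 in *Sirt7*-/- replicates 2, 3 and 4, against 43.7, 49.2 and 50.5 for peaks at listed starts. In *Sirt7*-/- replicate 3, the shortest of the *Sirt7*-/- lists, the medians were thus close. In WT replicates 2 and 4 the medians were 77.7 and 74.1 without a listed start, from 8 and 3 peaks, and 63.0 and 55.3 with one. The share of peaks whose region was also called in another *Sirt7*-/- sample was 69.3, 80.4 and 72.9% at listed starts and 22.5, 65.4 and 25% elsewhere. The mean over the *Sirt7*-/- samples was 74.2 ± 5.65% at listed starts and 37.6 ± 24.1% elsewhere (SD, n = 3 each).

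**Figure D4:**
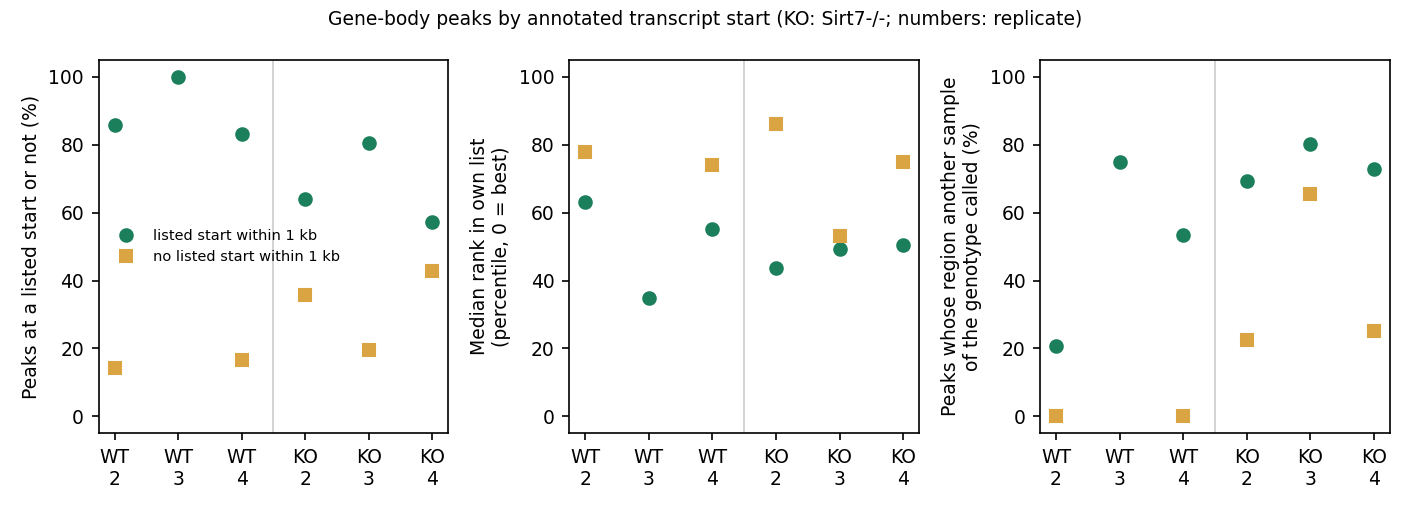
Gene-body peaks with (circles) and without (squares) a listed transcript start within 1 kb in each of the 6 samples: their share of peaks with a host in the start table (left, %), median rank in the own list (middle, percentile, 0 is best) and share whose region another sample of the genotype called (right, %). Circles lie above squares in the left and right panels in every sample that has both, and WT replicate 3 has no square.

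By region, 369 of the 446 gene-body regions (82.7%, exact 95% confidence interval 78.9 to 86.1%) were called in *Sirt7*-/- samples only, against 76.3% of all merged regions. A further 65 (14.6%) were called in both genotypes, against 21.1% of all merged regions, and 12 (2.69%) in WT samples only, against 2.60%. Present in every *Sirt7*-/- list and in 0 WT lists were 38 gene-body regions (8.52%, interval 6.10 to 11.5%), against 10.9% of all merged regions. The count was 62 without WT replicate 2, 62 without *Sirt7*-/- replicate 3 and 58 without *Sirt7*-/- replicate 2. These shares can depend on the lengths of the lists, whose part was not tested, and intervals cover counting error only. At listed starts, 51 of 199 regions (25.6%) were called in both genotypes and 143 (71.9%) in *Sirt7*-/- samples only. Without a listed start, 4 of 160 (2.5%) were called in both genotypes and 149 (93.1%) in *Sirt7*-/- samples only. Of the 38 regions in every *Sirt7*-/- list and in 0 WT lists, 33 had a host in the start table, and 26 of these lay at a listed start.

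Within samples, gene-body peaks were denser than intergenic peaks, a difference that passed its test only before adjustment. The differences of gene-body peaks from promoter peaks in width, fold, rank and recurrence did not pass a test. Per Mb of sequence, the log2 ratio of gene-body to intergenic peaks was 2.63 ± 0.621 (SD, n = 6) with a range of 2.05 to 3.61, above 0 in 6 of 6 samples (exact sign-flip permutation test, two-sided, p = 0.03125, adjusted over the 12 tests made 0.171). When listed starts were also counted as gene starts, an alternative added after the data were seen, the mean log2 ratio was 1.13, lower but still above 0. The median fold over input of gene-body peaks differed from that of promoter peaks by -0.0825 ± 0.152 (SD, n = 6) and lower in 5 of 6 samples (exact sign-flip permutation test, two-sided, p = 0.25). In that alternative the mean difference was -0.323. It takes out regions already seen to rank better in several lists, so it is given without a test. Widths differed by -0.298 ± 79.2 bp, the median rank by 6.0005 ± 11.7 percentile points, and the share called again in the same genotype by -7.92 ± 10.8 percentage points (SD, n = 6 each). The p-values of these 3 were 1, 0.281 and 0.156 (exact sign-flip permutation test, two-sided). Without WT replicate 3, the list with 5 gene-body peaks, the rank difference was 10.2 percentile points, the fold difference -0.143 and the width difference -31.1 bp. The difference in the share called again was -3.65 percentage points without *Sirt7*-/- replicate 2 and -4.18 without *Sirt7*-/- replicate 4.

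The share of hosts with a region at their own annotated start was near that of all genes. Among 388 protein-coding hosts of known strand, 87 (22.4%) had a merged region within 3 kb of the gene start, against 19.7% of all 21468 such genes. Hosts of regions at listed starts had one in 34 of 195 cases (17.4%), and hosts of other regions in 45 of 151 (29.8%). Taken sample by sample, 16.9, 11.0 and 19.1% of gene-body peaks in *Sirt7*-/- replicates 2, 3 and 4 had a promoter peak of the host in the same list. In the WT replicates the shares were 4.76, 0 and 0%. The means were 15.6 ± 4.19% and 1.59 ± 2.75% (SD, n = 3 each, p = 0.1, two-sided exact permutation test). The share of all protein-coding genes with a promoter peak moved with them, at 13.2, 9.73 and 11.7% in *Sirt7*-/- and 4.38, 0.317 and 1.35% in WT samples. Adjusted over the 12 tests made, each of the exact permutation tests above with p = 0.1 had a value of 0.171.

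The only gene-body region called in all 6 samples lay in *Btbd9*, which encodes a BTB domain protein. It spanned chr17:30575670-30577207 of mm10, 6.18 kb inside the gene on the minus strand. Its fold over input was 4.03, 4.51 and 3.42 in the *Sirt7*-/- lists of replicates 2, 3 and 4, against 3.36, 3.81 and 3.93 in the WT lists, so the groups overlapped. The peak was wider in each *Sirt7*-/- list, at 1506, 1380 and 1480 bp, than in the WT lists, at 1160, 624 and 699 bp. *Btbd9* was not in the start table. It also had a second region, chr17:30449526-30449754, called in *Sirt7*-/- replicate 4 alone.

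Among regions called in 5 samples, the one in *Slc39a10*, which encodes a zinc importer, had the highest fold of the named regions. At chr1:46852470-46853520 it lay 98 bp from the listed start whose sequence is given above and 72.8 kb from the gene start. The *Sirt7*-/- lists gave a fold of 4.89, 8.75 and 5.34 in the order of replicates, and WT replicates 2 and 4 gave 6.37 and 5.05. WT values thus lay within the *Sirt7*-/- range. *Nfyc*, the NF-Y subunit gene with 4 CCAAT boxes, carried its region at chr4:120825089-120825637 over the inner start. It was called in *Sirt7*-/- replicates 2 and 3 (fold 4.71 and 5.13) and in all 3 WT samples (5.68, 5.19 and 5.09). This was a region missing from 1 *Sirt7*-/- list and present in the short list of WT replicate 3.

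The region of *Rpl19*, a protein of the large ribosomal subunit, at chr11:98026685-98027326, was likewise called in WT replicates 2 and 3 (fold 4.45 and 5.05) and in all 3 *Sirt7*-/- samples (3.47, 4.77 and 4.89). *Ccnl1* encodes cyclin L1, which acts in splicing, and its region at chr3:65957466-65958917 covered an inner start and was centred 3.84 kb into the gene. The fold was 5.26, 5.16 and 5.10 in *Sirt7*-/- and 4.96 and 5.82 in WT replicates 2 and 4. In *Tjp1*, the gene of the tight junction protein ZO-1, the region at chr7:65370473-65371255 overlapped an inner start and was centred 157 kb from the gene start. Its fold was 3.84, 5.45 and 4.03 in *Sirt7*-/- and 4.87 and 4.98 in WT replicates 2 and 4. The regions in *Pan3*, a subunit of a poly(A) deadenylase, *Mllt10*, a partner of the H3K79 methyltransferase DOT1L, and *Ttc39c* were called in the same 5 samples, with folds from 3.54 to 5.97. *Sertad2* was called in 4 samples, with a fold of 5.49, 7.94 and 3.94 in *Sirt7*-/- and 5.42 in WT replicate 2. Of these 10 most recurrent regions, 8 lay at a listed start and the other 2 had hosts outside the start table.

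The 8 best ranked of the 38 regions found in every *Sirt7*-/- list and in 0 WT lists had folds between 3.95 and 6.17. *Cops3*, a subunit of the COP9 signalosome, led them with folds of 5.998, 5.03 and 5.43 in replicates 2, 3 and 4 at chr11:59839404-59839833. *Kansl1* encodes a scaffold of the NSL histone acetyltransferase complex, and its region of 1420 bp had folds of 4.14, 5.40 and 4.71. *Ptp4a2*, a tyrosine phosphatase, had 4.46, 4.79 and 6.10, and *Nktr*, a cyclophilin-related protein, had 6.17, 5.63 and 4.18. *Csk*, the kinase that restrains Src family kinases, had 4.20, 4.85 and 4.59. *Rnf126*, a ubiquitin ligase, had 4.63, 5.45 and 4.19. These 6 regions lay at listed starts, within 65 bp of one. The remaining 2 were in *Zbtb46*, a zinc finger transcription factor, and in *Bbc3*, the p53 target PUMA, where the nearest listed start was 33254 and 2284 bp away.

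The regions called in WT samples only numbered 12, and the 5 described by rule had a low -log10 q. The region in *Hdac4*, a class IIa histone deacetylase, was the only one of these 5 called in 2 WT samples, with folds of 4.27 and 4.49 in replicates 2 and 4 and a -log10 q of 1.60 and 1.41. It lay 120 bp from a listed start at chr1:92179716-92180221. The next by rank were in *E130308A19Rik*, *Dnajc7*, *Plekhs1* and *Fstl4*, called in 1 WT sample each, with a -log10 q of 1.52 to 1.70 and no listed start within 1 kb. The -log10 q of these peaks stayed below 2, so 0 of these 5 regions would remain at that threshold.

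**Figure D5:**
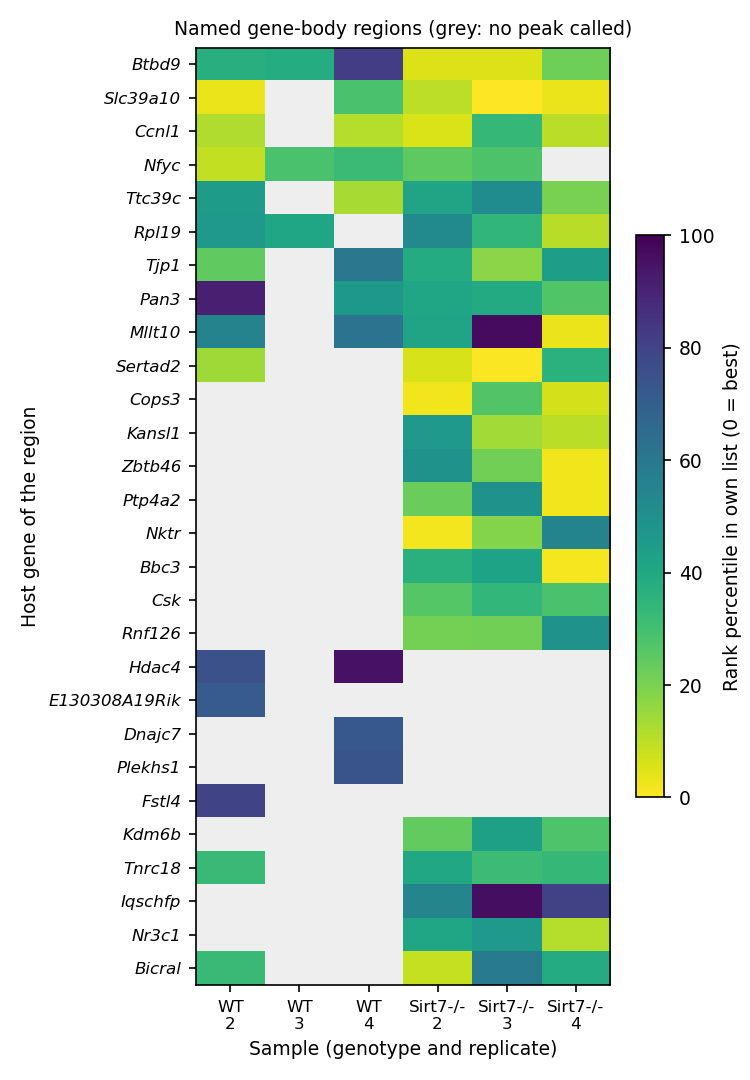
Rank of the peak in each sample's own list (colour, percentile of the -log10 q, 0 is best) for 28 named gene-body regions (rows, by host gene) in the 6 samples (columns), with grey where no peak was called. Rows run from the 10 most recurrent regions through 8 found in the 3 Sirt7-/- lists but in 0 WT lists and 5 called in WT samples only to the 5 widest.

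The 5 widest regions were 2146 to 2737 bp wide, and each was called in all 3 *Sirt7*-/- samples. *Kdm6b*, an H3K27 demethylase, had the widest at 2737 bp, with peaks of 2737, 2469 and 2390 bp in the 3 *Sirt7*-/- samples and none in WT samples. *Tnrc18* followed with 2629 bp, where the *Sirt7*-/- peaks were 2459, 416 and 1058 bp and that of WT replicate 2 was 258 bp. The merged width therefore rested on 1 sample there. *Iqschfp* had a region of 2413 bp with folds of 3.73 to 4.01 in the 3 *Sirt7*-/- samples, and like that of *Tnrc18* it lay in more than 1 annotated gene. *Nr3c1*, the glucocorticoid receptor gene, had one of 2285 bp, also with a peak in each *Sirt7*-/- list and 0 in WT lists. *Bicral*, a subunit of a BAF chromatin remodelling complex, had peaks of 2144, 1223 and 1563 bp in *Sirt7*-/- samples and 849 bp in WT replicate 2.

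Besides *Btbd9*, the genes with 2 regions that were described by rule were *Hdlbp*, *Jade1*, *Rai1* and *Zfhx3*. *Hdlbp* encodes the RNA-binding protein vigilin, and its region at a listed start was called in all 3 *Sirt7*-/- samples while the second, 8073 bp from a listed start, was called in *Sirt7*-/- replicate 2 alone. *Jade1*, a subunit of the HBO1 acetyltransferase complex, had both regions at listed starts, and the one of 1081 bp was called in *Sirt7*-/- replicates 3 and 4 and WT replicate 2. *Zfhx3*, a homeodomain transcription factor, had regions 425 and 436 kb from its start, called in 3 and 2 *Sirt7*-/- samples. In *Rai1*, which encodes a nuclear protein, both regions lacked a listed start and were called in 1 and 3 *Sirt7*-/- samples.

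In 12 lists of genes, between 0 and 4 members of each hosted a region, where the background was the 1.80% of protein-coding genes given above. Of 25 genes of H3K36 methylation and its readers, the 1 host was *Dnmt3a*, which encodes a DNA methyltransferase. Its region at chr12:3807099-3807930 covered a listed start and was called in *Sirt7*-/- replicate 3 alone (fold 4.64). Of 35 genes of histone acetylation, *Hdac4* and *Brd3*, an acetyl-lysine reader, were hosts (5.71%). The *Brd3* region lay at a listed start and was called in *Sirt7*-/- replicates 3 and 4, with folds of 5.12 and 3.94. Of 29 elongation genes, *Aff1*, a scaffold of the super elongation complex, was a host in *Sirt7*-/- replicate 2 alone (fold 4.19).

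Genes of germ cells and repair hosted 0 regions among 30 of undifferentiated spermatogonia, 15 of differentiating spermatogonia, 30 of meiotic chromosomes and 43 of DNA repair. Of 15 Sertoli cell genes, the transcription factor gene *Gata4* was a host, in *Sirt7*-/- replicate 4 alone (fold 3.75). There were 0 hosts among 17 Leydig and peritubular and 12 macrophage and endothelial genes. Among 26 very long adhesion and synapse genes, *Magi2*, *Nrxn3*, *Pcdh15* and *Wwox* were hosts (15.4%). The *Magi2* region was called in all 3 *Sirt7*-/- samples, with folds of 3.71, 5.26 and 4.37, and lay 1483 kb from the gene start near its end. The regions of *Pcdh15*, *Wwox* and *Nrxn3* were called in *Sirt7*-/- replicate 4 alone. Of 34 genes known for alternative promoters, *Nrg1* and *Nrxn3* were hosts (5.88%), and neither region had a listed start within 1 kb, *Nrg1* being outside the start table. The *Nrg1* region lay within 3 kb of an end of a gene of unknown strand and may be a promoter. Among 416 *Zfp* genes, 5 were hosts. These counts are small, the genes differ in length, and nothing particular to a list can be read from them.

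On chromosome X there was 1 gene-body region, in *Zfx*, at a listed start and called in *Sirt7*-/- replicate 4 alone. This was 2.08 regions per 100 Mb of gene body, against 25.3 to 67.1 on the autosomes. Chromosome X held 4.34% of the gene-body sequence and 0.224% of the gene-body regions. Peaks of any kind on chromosome X numbered 33 over the 3 *Sirt7*-/- lists and 0 over the 3 WT lists. The WT lists were much shorter, at 64 to 906 peaks against 2045 to 2840, so the genotypes cannot be compared here. Of all 4467 merged regions only 26 lay on chromosome X, so the scarcity was not particular to gene bodies. The highest density was on chromosome 11, with 38 regions and 67.1 per 100 Mb. Chromosome 11 also held the most merged regions of all classes together, 374 of 4467, so this was not particular to gene bodies. Of 1005 miRNA hairpins listed in RefSeq, 0 overlapped a gene-body region. Gene-body peaks covered at most 145 kb in a sample, of 1106 Mb of gene-body sequence, so nothing about miRNA genes can be read from this.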

How the data were processed

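H3K36ac ChIP-seq peak lists of 3 WT and 3 *Sirt7*-/- samples were used, and input libraries entered only through peak calling. The authors trimmed (Trim Galore 0.6.6) and aligned the reads to mm10 (Bowtie2 2.4.4.1), kept unique reads without duplicates of mapping quality 30 or more (SAMtools 1.19.2, Sambamba) and called broad peaks per sample with MACS2 2.2.5 at a cutoff of 0.1, without pooling or a spike-in factor. The deposited lists give peak positions, the authors' score (not used), the fold over input as a ratio, and the -log10 of p and q, used within each list only. A long list can hold weaker peaks than a short one, and the reads left after filtering are not given in the sources used here, so the depth behind a peak is unknown.

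Peaks were merged across the 6 lists and placed on the RefSeq genes of GRCm38.p6. That table has no strand. Strand came from RefSeq start windows (27025 genes) or GENCODE by symbol and chromosome (18249), 90.7% of 49943 genes in all, and 128 of 22231 genes with both sources differed. Genes without strand had no promoter window. Inner transcript starts came from the start windows, which are not complete. Groups of 3 were compared by exact permutation tests over 20 assignments, and classes within samples by exact sign-flip tests over 6 samples, with Benjamini-Hochberg adjustment over 12 tests. Densities used a pseudocount of 0.5 peaks, and assembly gaps were not excluded. Intervals are exact (Clopper-Pearson, 95%).

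Regions were named by host: the 10 called in most samples, the first 8 found in every *Sirt7*-/- list and in 0 WT lists, 5 called in WT only, 5 hosts with most regions, the 5 widest, and every host in the gene lists, by rank of the -log10 q. Regions within 3 kb of an end of a gene of unknown strand were skipped, except for hosts in the gene lists. *Arhgap26* and *Zfx* were named after their values were seen. The members and lists were chosen with earlier results of these data known. The assignment was tested on 2000 simulated regions, and 100% came out correct. Alternatives were another q threshold, lists of equal length, promoter windows of 1 and 5 kb, other host definitions, autosomes, each replicate left out, a replicate block and, added later, listed starts counted as gene starts. The scripts used SciPy 1.17.1, NumPy 2.4.6, pandas 2.3.3 and matplotlib 3.10.9 under Python 3.11.15.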

Additional observations from a re-analysis of the deposited data

How the results depend on the processing

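The differences between genotypes in number, covered length, mean width and relative position of gene-body peaks kept their direction in all 16 alternatives run for each. Among these was the replicate block, which leaves the difference unchanged by construction. With lists of equal length the mean difference in number was only 2 peaks. With a -log10 q of at least 2, the difference in gene-body share was -0.882 percentage points, the width difference to promoter peaks 25.2 bp, the difference in the share called again 3.63 percentage points, and 21 regions were in every *Sirt7*-/- list and in 0 WT lists. With the same number of peaks per list, by construction the 64 best, the difference in distance was -13.6 kb, that in the promoter peak share of hosts 0, the width difference 39.9 bp, the fold difference 0.0213, the rank difference -1.87 and the count of regions 0. Windows of 1 and 5 kb gave fold differences of -0.104 and -0.146, both then past the threshold of the sign-flip test before adjustment, and 1 kb gave 60 regions. Counting listed starts as gene starts gave a fold difference of -0.323, a width difference of 2.65 bp and 11 regions. The width difference was 0.0647 bp with most of the region inside a gene and 0.641 bp with protein-coding hosts. Causes were not tested. Leaving out a replicate gave width differences from -31.1 to 15.6 bp, rank differences from 4.08 to 10.2, fold differences from -0.143 to -0.0632, differences in the share called again from -10.6 to -3.65 percentage points, log2 density ratios from 2.44 to 2.77 (5 samples allow no p below 0.0625) and 39 to 62 regions.

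The correlations of deviations for equal replicate numbers were -0.0335, -0.0861 and 0.0128. They rest on the presence of peaks in lists of very unequal length, so they cannot decide whether the numbers pair the samples. With the replicate block the difference in gene-body peaks was 188 again and the smallest p that 3 pairs allow is 0.25, so the block says nothing about stability.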
